A study of Mus musculus with 20 samples.

Results

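Cassette exons that sit between 2 short introns were examined in bone marrow of mice that expressed U2AF1(WT) or U2AF1(S34F) and received the splicing modulator sudemycin D6 or its vehicle. An event was built from 3 junctions with both ends annotated, on the same chromosome and strand: a skipping junction and the 2 inclusion junctions that lead into and out of the exon. Events were kept where the exon measured 31 to 300 bp, neither intron exceeded 500 bp and no annotated junction lay inside the exon. The rule used no inclusion value, and it gave 690 events, with 670 exons of 528 genes, of 9239 cassette exon events in the series. Each of the 4 groups held 5 recipient mice: U2AF1(WT) with vehicle, U2AF1(WT) with sudemycin, U2AF1(S34F) with vehicle and U2AF1(S34F) with sudemycin, called WT and S34F mice here. All 20 mice ate chow with 625 ppm doxycycline for 7 days to induce the transgene, and drug or vehicle was infused over the last 5 days. Transgenic donor marrow had been pooled from several mice and transplanted into irradiated wild-type recipients, so mice of a group could share donors and residual recipient cells carry no transgene. The labels do not say which mice shared a donor pool, so p-values measure the spread between these recipients.

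Most internal exons of mammals lie between long introns and are recognised across the exon, whereas splice sites that face each other across a short intron can be paired directly. U2AF1 is the subunit of the U2AF dimer that contacts the AG dinucleotide at the 3′ end of the intron, and the S34F substitution, recurrent in myelodysplastic syndromes, lies in one of its zinc fingers and shifts the choice of 3′ splice site according to the base just before the AG. Sudemycin D6 binds the SF3B1 complex of the U2 snRNP, which takes over the branch point after U2AF has bound, so both perturbations act on the same end of the intron. Inclusion was measured as Ψ, the mean of the 2 inclusion junction counts divided by that mean plus the skipping junction count. Ψ therefore runs from 0, where every read skips the exon, to 1, where none does.

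The exons below are shown because their inclusion was called in both comparisons of the same factor, sudemycin or genotype, which share no mouse. Each line holds the last 40 intron bases, the exon in capitals and the first 10 bases of the next intron, read 5′ to 3′ from the transcribed strand of NCBI build 37 (mm9). The stretches lie at chrX:71151486-71151598 for Arhgap4 (minus strand), chr7:133921528-133921621 for Ypel3 (plus strand), chr7:148450112-148450254 for Irf7 (minus strand), chr10:116798820-116798980 for Cpsf6 (minus strand), chr9:13641063-13641170 for Fam76b (plus strand), chr1:162967215-162967305 for Gas5 (plus strand) and chr16:94605913-94606005 for Ttc3 (plus strand). The Arhgap4, Ypel3, Irf7, Fam76b and Ttc3 exons match annotated coding exons, though the inclusion transcript of Fam76b is marked for nonsense-mediated decay. The Gas5 exon belongs to a noncoding transcript and the Cpsf6 exon matches no single annotated exon.
Arhgap4: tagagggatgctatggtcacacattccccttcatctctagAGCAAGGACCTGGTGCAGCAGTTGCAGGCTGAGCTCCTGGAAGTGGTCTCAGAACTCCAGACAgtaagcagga
Ypel3: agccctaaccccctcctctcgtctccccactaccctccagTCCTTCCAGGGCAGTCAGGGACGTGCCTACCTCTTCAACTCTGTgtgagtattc
Irf7: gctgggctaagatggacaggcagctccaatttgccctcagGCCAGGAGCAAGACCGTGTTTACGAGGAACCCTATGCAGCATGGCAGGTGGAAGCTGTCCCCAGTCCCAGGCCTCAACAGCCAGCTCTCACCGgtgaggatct
Cpsf6: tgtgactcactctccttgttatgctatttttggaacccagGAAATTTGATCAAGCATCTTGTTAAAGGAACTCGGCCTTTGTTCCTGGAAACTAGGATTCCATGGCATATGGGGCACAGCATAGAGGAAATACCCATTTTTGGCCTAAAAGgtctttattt
Fam76b: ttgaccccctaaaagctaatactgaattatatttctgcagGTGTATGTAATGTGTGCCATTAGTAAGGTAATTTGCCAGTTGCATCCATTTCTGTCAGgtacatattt
Gas5: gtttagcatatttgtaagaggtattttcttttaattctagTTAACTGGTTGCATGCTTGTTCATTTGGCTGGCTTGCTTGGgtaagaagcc
Ttc3: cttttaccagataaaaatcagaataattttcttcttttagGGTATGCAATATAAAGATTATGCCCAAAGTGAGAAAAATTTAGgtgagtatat

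The 3′ splice sites of 10 exons that differed with genotype follow, as the last 20 intron bases and the first 3 exon bases. Capitals mark the last 3 intron bases, of which the first is the −3 position that precedes the AG. They lie at chrX:71151556-71151578 for Arhgap4 (minus strand), chr1:162967235-162967257 for Gas5 (plus strand), chr16:94605933-94605955 for Ttc3 (plus strand), chr5:138704202-138704224 for BC037034 (minus strand), chr7:50784923-50784945 for Cd33 (minus strand), chr9:45755778-45755800 for Sidt2 (minus strand), chr4:129279094-129279116 for 2510006D16Rik (plus strand), chr15:76182406-76182428 for Maf1 (plus strand), chr5:31475882-31475904 for Gtf3c2 (minus strand) and chr9:45675132-45675154 for Rnf214 (minus strand).
Arhgap4: acattccccttcatctcTAGagc
Gas5: gtattttcttttaattcTAGtta
Ttc3: gaataattttcttctttTAGggt
BC037034: ccgatggctcctgtaccTAGatt
Cd33: ctcctggtaaacatcatCAGagg
Sidt2: catttcacaactggaacCAGgcc
2510006D16Rik: gtttctctgtttgctctAAGggg
Maf1: gggtttcctcctcttgaCAGgaa
Gtf3c2: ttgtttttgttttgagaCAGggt
Rnf214: gaaattatttctacccaCAGcca

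Junction reads totalled 34384214 to 64813149 per mouse, and the events between short introns took 411015 to 700122 of these counts, where a junction shared by several events was counted for each. Gene counts totalled 41145892 to 62138138 per mouse. The WT and S34F mice also differed in sex-linked RNA: Xist had 39145 to 78640 counts in the 10 WT mice and 1 to 8 in the 10 S34F mice, and 4 Y-linked genes summed to 0 to 4 counts in WT and 10270 to 15034 in S34F. The effect of genotype therefore cannot be told apart from that of sex in any comparison of S34F with WT. U2af1 stood at 36.1 ± 1.39 CPM (SD, n = 5) in WT and 51.1 ± 2.98 CPM in S34F mice under vehicle, and these gene counts do not separate transgene from endogenous RNA. The marrow label was borne out by neutrophil markers, among them the calprotectin genes, which summed to 60547 to 104381 CPM in WT mice and 76832 to 143273 CPM in S34F mice. Under vehicle the neutrophil sums did not overlap between WT (65858 to 73067 CPM) and S34F mice (85279 to 143273 CPM), and 5 of 10 of these markers were higher in S34F; under sudemycin 3 were. Summed monocyte and macrophage markers were 1638 to 2063 CPM in S34F mice with sudemycin, above S34F with vehicle (1312 to 1590) and WT with sudemycin (1309 to 1568) without overlap, whereas WT with vehicle ran from 1321 to 1918 CPM. The single markers were divided: of the 7 summed, 1 was higher and 0 lower with sudemycin in S34F mice. In S34F against WT mice, 3 were higher and 1 lower under sudemycin, and 1 higher and 3 lower under vehicle. Summed B cell markers were 40.6 to 139 CPM in WT with vehicle, 24.5 to 170 in WT with sudemycin, 16.3 to 158 in S34F with vehicle and 34.7 to 53.2 in S34F with sudemycin. Of 8 B cell markers, 4 were lower in S34F under sudemycin. The part of these markers in the splicing differences was not tested, and fewer cells of a type cannot be told apart from less RNA per cell.

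Exons between short introns were mostly included. Their median Ψ over the 20 mice was 0.924, against 0.771 for exons of the same lengths with 1 short intron and 0.800 for exons with none. Of the 690 events, 375 had a mean Ψ over 0.9, 228 lay between 0.1 and 0.9 and 87 lay under 0.1. The exons had a median length of 105 bp, the same as the 105 bp of exons without a short intron, and their introns had medians of 220 bp upstream and 205 bp downstream, with a shortest intron of 70 bp. They were also rich in G and C: the median GC content was 55.2% in the exon, 54.4% in the upstream intron and 52.8% in the downstream intron, against 49.0%, 43.5% and 42.9% around exons without a short intron. An annotated coding exon matched 552 events, an untranslated exon 51 and an exon of a noncoding transcript 62, while 25 matched no single exon. The exon length was a multiple of 3 in 329 events (47.7%), against 49.3% for exons without a short intron. The 2 inclusion junctions of an event, which should be equally used in a simple cassette exon, differed by a median of 1.42-fold, and by over 5-fold in 117 events.

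Tests covered events whose 3 junctions averaged 10 or more reads in a mouse and in which inclusion and skipping were both read. Calls required an FDR under 10% and |ΔΨ| above 1%. Of the 690 events, 649 were tested in at least 1 of 5 comparisons and 553 in all 5. S34F and WT mice under vehicle differed in 29 of 599 events (12 lower and 17 higher in S34F). The background over all cassette exons was 5.38% called, 2.68% with lower and 2.69% with higher Ψ. Under sudemycin they differed in 25 of 616 events (18 lower and 7 higher), against a background of 4.6%, 2.4% lower and 2.2% higher. Sudemycin changed 6 of 596 events in WT mice (4 lower, 2 higher), against 1.62%, 0.953% lower and 0.665% higher. In S34F mice it changed 14 of 613 (10 lower, 4 higher), against 2.17%, 1.38% lower and 0.789% higher. S34F mice given sudemycin differed from WT mice given vehicle in 47 of 619 events (27 lower, 20 higher), against 8.82%, 5.23% lower and 3.59% higher. The shares among exons between short introns were 4.84%, 4.06%, 1.01%, 2.28% and 7.59% in the same order, near the background in each comparison. In all, 68 events with 67 exons of 62 genes were called in at least 1 comparison, and 19 events with 18 exons in 2 or more of the 4 comparisons that changed 1 factor. Neither count was set beside a share over all cassette exons. The calls depended on the model used. With a negative binomial dispersion estimated by edgeR, 2, 1, 0, 3 and 15 events were called in the same order. With limma on Ψ the counts were 17, 13, 2, 11 and 36. The named events held 98 calls, of which 16 were kept with the estimated dispersion, 55 with limma and 83 with DESeq2. Among the exons described below, the calls kept with the estimated dispersion in comparisons of 1 factor were those of Lilrb3 in both genotype comparisons, Arhgap4 under vehicle, and Dhrs3 and Lrch4 for sudemycin in S34F mice; the others were lost. With limma 43 of the 98 calls were lost, and not all of them are listed here. They included the calls for S34F under sudemycin of Gas5, Ttc3, BC037034 and Sidt2. Also lost were those of Ypel3 and Cpsf6 for the drug in both genotypes and of Irf7 and Fam76b in WT mice. The excess of events with higher Ψ in S34F under vehicle did not hold with DESeq2 (18 lower, 17 higher) or limma (10 lower, 7 higher), and for sudemycin in WT DESeq2 gave 4 lower and 7 higher. The count for S34F under vehicle was 18 without S34F vehicle replicate 11 and 19 without replicate 7, and the count for sudemycin in WT was 11 without WT sudemycin replicate 6 and 10 without replicate 9. Over all cassette exons the counts also varied without 1 mouse, from 315 to 421 and from 105 to 161 in these comparisons.

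**Figure D1:**
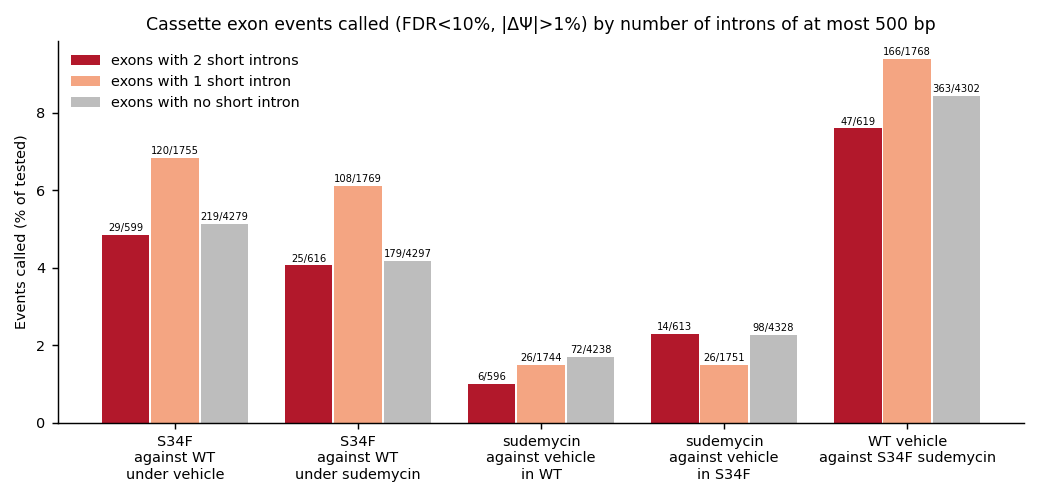
The percent of tested cassette exon events called at FDR<10% and |ΔΨ|>1% (y axis) is drawn for 5 comparisons and for exons with 2, 1 or no intron of at most 500 bp, with called and tested counts above each bar. Exons with 2 short introns range from 1.01% called for sudemycin in WT mice to 7.59% for both perturbations together.

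Mean inclusion over these events stayed within a narrow range. Over 631 events with reads in all 20 mice the mean Ψ of a mouse ran from 0.725 to 0.733 in WT mice with vehicle, from 0.721 to 0.738 in WT mice with sudemycin, from 0.733 to 0.736 in S34F mice with vehicle and from 0.723 to 0.730 in S34F mice with sudemycin. The 3 groups other than S34F with vehicle overlapped one another, and S34F with vehicle overlapped WT with sudemycin. S34F with vehicle lay above S34F with sudemycin and, by a narrow margin (0.7334 against 0.7333), above WT with vehicle. Over 8085 cassette exon events of the series the ranges were 0.591 to 0.597, 0.586 to 0.594, 0.592 to 0.596 and 0.587 to 0.592, with the groups in the same order. The median ΔΨ of the tested events was 0.00211 for S34F against WT under vehicle, -0.000937 for the same under sudemycin, 0.00120 for sudemycin in WT and -0.00242 for sudemycin in S34F mice, beside 0.000261, -0.00064, -0.00105 and -0.00152 over all cassette exons.

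Arhgap4, a GTPase-activating protein of haematopoietic cells, had the only exon called in all 5 comparisons. Its 63 bp coding exon (chrX:71151496-71151558, minus strand) lies between introns of 209 bp upstream and 293 bp downstream. Ψ was 0.836, 0.78, 0.712, 0.779 and 0.797 in the WT mice given vehicle. With sudemycin, WT mice had 0.617, 0.659, 0.699, 0.623 and 0.563. S34F mice had 0.578, 0.614, 0.639, 0.595 and 0.522 with vehicle and 0.496, 0.485, 0.46, 0.494 and 0.482 with sudemycin. WT mice with vehicle were above every mouse of the other groups, and S34F mice with sudemycin were below all of them. Inclusion was lower in S34F than in WT mice under vehicle with ΔΨ = -0.191 ± 0.0281 (SE; edgeR, FDR = 9.61e-09) and under sudemycin with ΔΨ = -0.149 ± 0.0236 (SE; edgeR, FDR = 3.52e-06). Sudemycin lowered it in WT mice with ΔΨ = -0.149 ± 0.0303 (SE; edgeR, FDR = 4.12e-05) and in S34F mice with ΔΨ = -0.106 ± 0.0207 (SE; edgeR, FDR = 0.000104). Over the 5 mice of a group, there were 1232 skipping reads in WT with vehicle and 2982 in S34F with sudemycin, beside 4834 and 2892 upstream inclusion reads. All 5 calls were kept without any 1 mouse. With the estimated dispersion the call under vehicle was kept (edgeR, FDR = 0.0901), and those for S34F under sudemycin (edgeR, FDR = 0.203) and for the drug in WT (edgeR, FDR = 0.43) and S34F mice (edgeR, FDR = 0.375) were lost. With limma all were kept, at an FDR of 0.0993 for the drug in WT mice. The gene is on the X chromosome and its RNA did not pass the test between genotypes under vehicle, with log2 fold change -0.15 ± 0.09 (SE; edgeR, FDR = 0.24), whereas under sudemycin it was lower in S34F mice with log2 fold change -0.37 ± 0.10 (SE; edgeR, FDR = 0.0208).

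**Figure D2:**
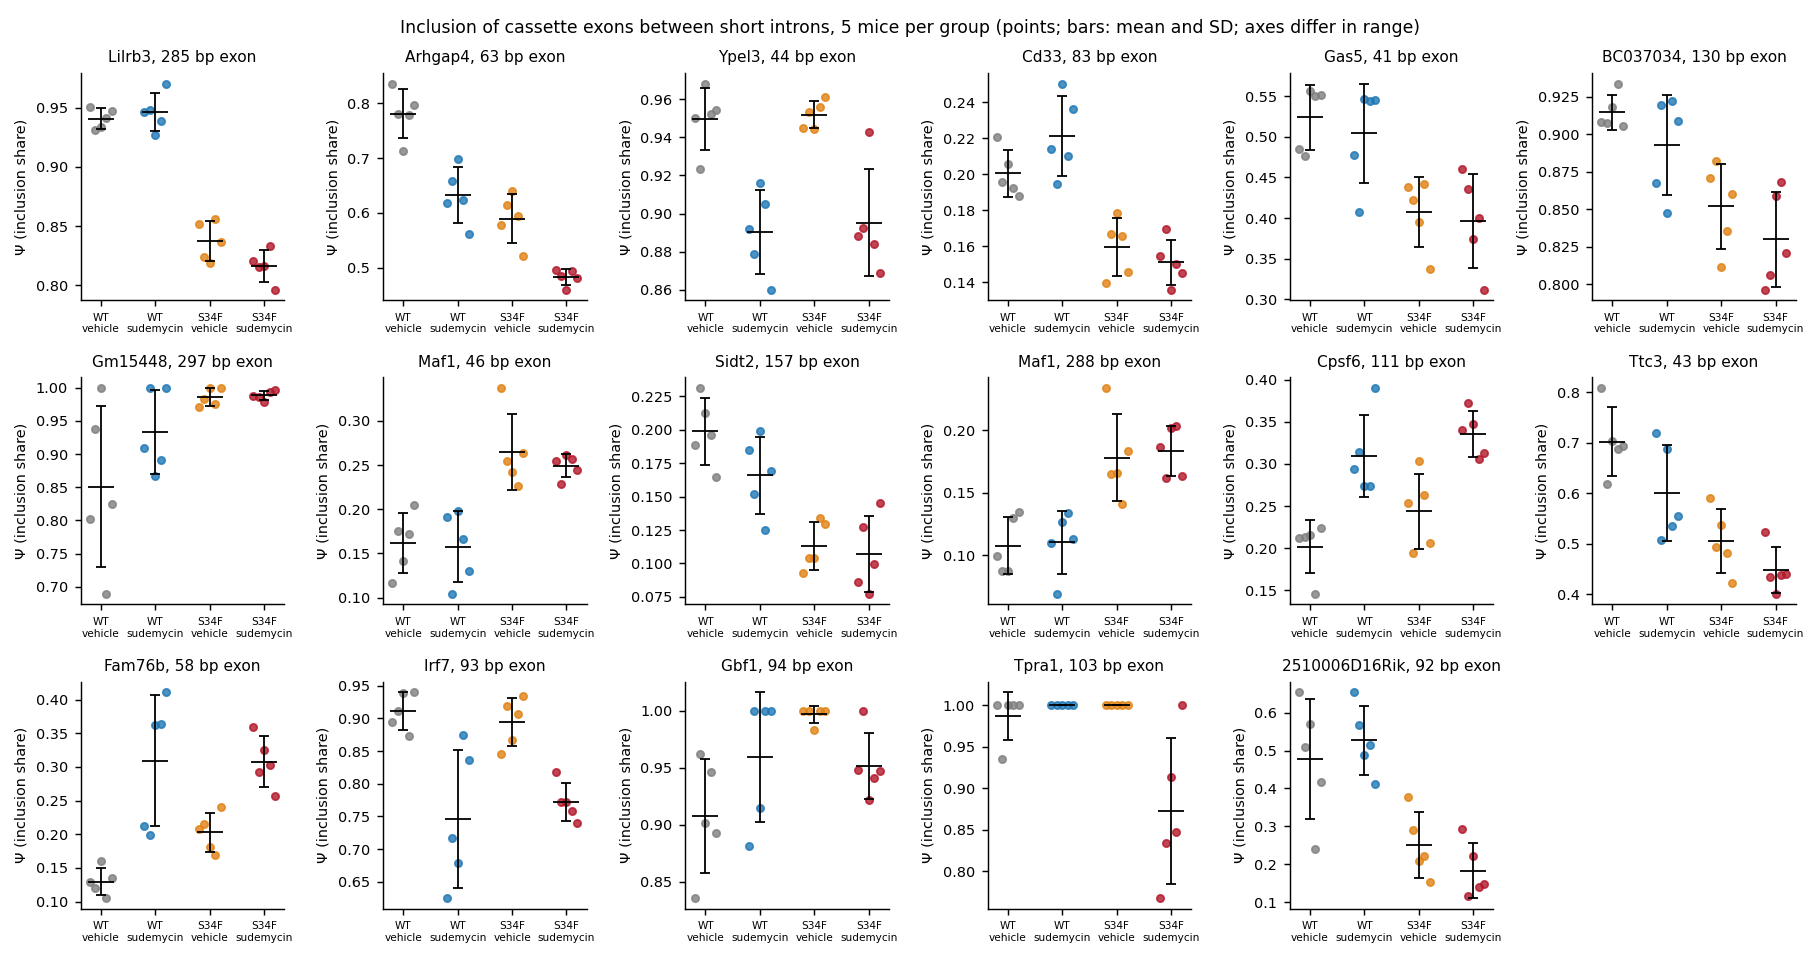
Ψ (y axis, share of transcripts that include the exon) of every mouse is plotted by group (x axis) for 17 exons called in 2 or more comparisons that changed 1 factor; black lines give the mean and SD of 5 mice, and y axes differ in range. Arhgap4 falls from a mean of 0.781 in WT mice with vehicle to 0.484 in S34F mice with sudemycin, while Ypel3 falls with sudemycin and Lilrb3 is lower in S34F mice.

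The S34F comparisons under vehicle and under sudemycin share no mouse. Both tested 571 events, and 12 events were called in both, all in the same direction: this was 41.4% of the calls under vehicle and 48% of those under sudemycin, beside 40% and 46.2% for all cassette exons. Of the 29 calls under vehicle, 23 had the same sign under sudemycin (79.3%, against 93.5% of all cassette exon calls), and of the 25 calls under sudemycin, 23 had the same sign under vehicle (92%, against 94.9%).

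Gas5, a noncoding host gene of small nucleolar RNAs, skipped its 41 bp exon (chr1:162967255-162967295, plus strand) more often in S34F mice. WT mice had Ψ of 0.485, 0.476, 0.556, 0.55 and 0.552 with vehicle and 0.477, 0.408, 0.546, 0.544 and 0.545 with sudemycin. The S34F mice given vehicle had 0.438, 0.422, 0.395, 0.442 and 0.337. Those given sudemycin had 0.46, 0.435, 0.375, 0.399 and 0.312. The lowest WT mouse under vehicle, at 0.476, was above the highest S34F mouse at 0.442, whereas under sudemycin the groups overlapped. The difference was ΔΨ = -0.117 ± 0.0262 (SE; edgeR, FDR = 0.000881) under vehicle and ΔΨ = -0.108 ± 0.0376 (SE; edgeR, FDR = 0.0176) under sudemycin, and both calls were kept without any 1 mouse. Sudemycin gave ΔΨ = -0.0198 ± 0.0327 (SE; edgeR, FDR = 0.902) in WT and ΔΨ = -0.0107 ± 0.0322 (SE; edgeR, FDR = 0.929) in S34F mice, which did not pass the test.

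The 43 bp coding exon of Ttc3, a ubiquitin ligase with tetratricopeptide repeats (chr16:94605953-94605995, plus strand), was also skipped more in S34F mice. Ψ was 0.809, 0.618, 0.704, 0.688 and 0.694 in the WT mice given vehicle. With sudemycin, WT mice had 0.72, 0.508, 0.687, 0.534 and 0.555. S34F mice had 0.591, 0.494, 0.537, 0.481 and 0.422 with vehicle and 0.523, 0.435, 0.4, 0.438 and 0.44 with sudemycin. Under vehicle the WT and S34F mice did not overlap, and under sudemycin they did. Inclusion was lower in S34F with ΔΨ = -0.198 ± 0.0418 (SE; edgeR, FDR = 0.00282) under vehicle and ΔΨ = -0.153 ± 0.0474 (SE; edgeR, FDR = 0.025) under sudemycin; the second call was lost without WT sudemycin replicate 6 (ΔΨ = -0.124). Its annotated skipping transcripts include 4 marked for nonsense-mediated decay, and Ttc3 RNA was higher in S34F mice under vehicle (106 ± 10.1 against 66.9 ± 7.56 CPM), with log2 fold change 0.65 ± 0.10 (SE; edgeR, FDR = 0.000387).

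2 receptors of myeloid cells, Lilrb3 and Cd33, also skipped an exon more in S34F mice. Lilrb3, an inhibitory immunoglobulin-like receptor, had a 285 bp coding exon (chr7:3671239-3671523, minus strand) with a mean of 9943 junction reads per mouse. WT mice had Ψ of 0.951, 0.931, 0.934, 0.942 and 0.947 with vehicle and 0.947, 0.948, 0.927, 0.939 and 0.97 with sudemycin. The S34F mice given vehicle had 0.852, 0.824, 0.818, 0.856 and 0.837. Those given sudemycin had 0.82, 0.815, 0.816, 0.833 and 0.796. No S34F mouse reached the lowest WT mouse, and the differences were ΔΨ = -0.103 ± 0.00835 (SE; edgeR, FDR = 5.34e-16) under vehicle and ΔΨ = -0.13 ± 0.00926 (SE; edgeR, FDR = 4.79e-11) under sudemycin. Lilrb3 belongs to a family of near-identical genes between which reads can be split, so its inclusion is uncertain; its gene count was lower in S34F mice under vehicle (418 ± 47.7 against 612 ± 33.6 CPM), with log2 fold change -0.57 ± 0.09 (SE; edgeR, FDR = 0.000734).

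Cd33, a sialic acid-binding receptor of myeloid cells, included its 83 bp exon (chr7:50784843-50784925, minus strand) at low levels. Ψ was 0.221, 0.196, 0.205, 0.192 and 0.188 in the WT mice given vehicle. With sudemycin, WT mice had 0.214, 0.195, 0.25, 0.21 and 0.236. S34F mice had 0.14, 0.167, 0.179, 0.166 and 0.146 with vehicle and 0.154, 0.169, 0.136, 0.15 and 0.145 with sudemycin. WT and S34F mice did not overlap under either treatment, with ΔΨ = -0.0411 ± 0.00926 (SE; edgeR, FDR = 0.06) under vehicle and ΔΨ = -0.0702 ± 0.0114 (SE; edgeR, FDR = 0.000184) under sudemycin. The difference lay in the upstream junction: counted alone, the upstream junction gave ΔΨ of -0.0748 and -0.108, and the downstream junction -0.00184 and -0.027. The call under vehicle was lost without WT vehicle replicate 1 (ΔΨ = -0.0361), WT vehicle replicate 3 (-0.0399), S34F vehicle replicate 1 (-0.0363) or S34F vehicle replicate 11 (-0.0377). Cd33 RNA was itself lower in S34F mice under vehicle, with log2 fold change -0.55 ± 0.13 (SE; edgeR, FDR = 0.00612).

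Among the other exons called in both genotype comparisons, BC037034 (130 bp, coding) had a mean Ψ of 0.915 ± 0.0117 in WT and 0.852 ± 0.0285 in S34F mice (SD, n = 5) under vehicle. Under sudemycin the means were 0.893 ± 0.0334 and 0.83 ± 0.0318, and the call was lost without WT sudemycin replicate 8 (ΔΨ = -0.0564), WT sudemycin replicate 10 (-0.0558), S34F sudemycin replicate 2 (-0.0546) or S34F sudemycin replicate 6 (-0.057). Sidt2, a lysosomal membrane protein, had a 157 bp exon with no annotated match, at 0.199 ± 0.0251 in WT and 0.113 ± 0.0179 in S34F mice under vehicle. Under sudemycin it had 0.166 ± 0.0289 and 0.107 ± 0.0285, and the call was lost without S34F sudemycin replicate 2 (ΔΨ = -0.0537), S34F sudemycin replicate 9 (-0.0514) or S34F sudemycin replicate 10 (-0.0569). The difference was larger on the upstream junction, with ΔΨ of -0.112 under vehicle and -0.0954 under sudemycin, than on the downstream junction, with -0.048 and -0.0129. The 92 bp exon of 2510006D16Rik fell by the most, from 0.528 ± 0.0907 to 0.183 ± 0.0729 under sudemycin (ΔΨ = -0.345 ± 0.052 (SE; edgeR, FDR = 0.000745)), but its upstream junction had 15 reads in 5 WT mice beside 317 downstream and by itself gave a ΔΨ of 0.0173. A second event of the same exon, with another upstream splice site, was also called and gave ΔΨ of -0.31 on its upstream junction and -0.303 on the downstream junction under sudemycin. Both calls under sudemycin were kept without any 1 mouse. Under vehicle the call of the first event was lost without WT vehicle replicate 1 (ΔΨ = -0.184) and that of the second without any 1 of 5 of the 10 mice.

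Maf1, a repressor of RNA polymerase III, went the other way. A 46 bp exon of its untranslated region (chr15:76182426-76182471, plus strand) had a mean Ψ of 0.162 ± 0.0339 in WT and 0.265 ± 0.0428 in S34F mice under vehicle, and 0.158 ± 0.0402 and 0.249 ± 0.0132 under sudemycin. The highest WT mouse was at 0.205 and the lowest S34F mouse at 0.226, so the genotypes did not overlap. The differences were ΔΨ = 0.103 ± 0.0244 (SE; edgeR, FDR = 0.00751) and ΔΨ = 0.0913 ± 0.0189 (SE; edgeR, FDR = 0.0176). A 288 bp version of the exon shares the upstream junction and was called in the same comparisons, but had only 45 downstream reads in 5 WT mice with vehicle; its call under vehicle was lost without WT vehicle replicate 2 (ΔΨ = 0.0652) or S34F vehicle replicate 1 (0.0562). An exon of Gm14548 and Gm15448, near-identical members of the Pira family, was called as more included in S34F mice but had 9 downstream inclusion reads in all 20 mice; on the downstream junction alone the sign reversed under vehicle (-0.0592), and the call under sudemycin was lost without WT sudemycin replicate 6 (ΔΨ = 0.0493) or WT sudemycin replicate 9 (0.039).

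Other exons were called under 1 treatment only, and the difference between treatments did not pass the interaction test for any of them. Under vehicle, Tm7sf2, a sterol reductase, went from 0.974 ± 0.0354 in WT to 0.689 ± 0.117 in S34F mice, with 21 to 94 reads per mouse. Gtf3c2, a subunit of the RNA polymerase III factor TFIIIC, rose from 0.238 ± 0.0473 to 0.376 ± 0.0407 and lost its call without WT vehicle replicate 2 (ΔΨ = 0.125) or S34F vehicle replicate 11 (0.127); its ΔΨ was 0.0605 on the upstream and 0.191 on the downstream junction. Rnf214 rose from 0.416 ± 0.0889 to 0.661 ± 0.0831 and lost its call without WT vehicle replicate 1 (ΔΨ = 0.225) or S34F vehicle replicate 7 (0.212). Gas2l1 had the largest ΔΨ under vehicle, at 0.446, but held 4 to 55 reads per mouse. It had the opposite sign under sudemycin (-0.0889) and lost its call without WT vehicle replicate 2 (ΔΨ = 0.387), WT vehicle replicate 5 (0.44) or S34F vehicle replicate 3 (0.365). Under sudemycin, Prpf39, a component of the U1 snRNP, had 0.351 ± 0.0437 in WT and 0.22 ± 0.0508 in S34F mice (ΔΨ = -0.13 ± 0.03 (SE; edgeR, FDR = 0.015)). Bptf, a subunit of a chromatin remodeller, had 0.0625 ± 0.0113 and 0.0151 ± 0.0101 (ΔΨ = -0.0474 ± 0.00678 (SE; edgeR, FDR = 0.0136)). Mrps23, a mitochondrial ribosomal protein, went from a Ψ of 1 in all 5 WT mice to 0.96 ± 0.0244 in S34F mice. These 3 calls under sudemycin were kept without any 1 mouse. Rif1, which acts in replication timing and double-strand break repair, had 0.622 ± 0.0601 and 0.443 ± 0.0634, and its call was lost without S34F sudemycin replicate 9 (ΔΨ = -0.162). Pabpc4, a poly(A)-binding protein, had 0.707 ± 0.0782 and 0.55 ± 0.0762, and its call was lost without WT sudemycin replicate 8 (ΔΨ = -0.132), S34F sudemycin replicate 9 (-0.152) or S34F sudemycin replicate 12 (-0.127).

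A few smaller differences were also called in the genotype comparisons. Under vehicle, Eif5, a translation initiation factor, rose from 0.938 ± 0.0162 to 0.968 ± 0.0127 and Chchd7, a mitochondrial protein, from 0.00283 ± 0.00633 to 0.037 ± 0.0244. Mmadhc, of vitamin B12 metabolism, rose from 0.0252 ± 0.0156 to 0.0555 ± 0.0198. The Eif5 call was lost without any 1 of 5 of the 10 mice (ΔΨ from 0.0255 to 0.0281) and the Mmadhc call without any 1 of 6 of the 10 mice (ΔΨ from 0.026 to 0.03). Hsd3b7, an enzyme of bile acid synthesis, rose by 0.152 on the Ψ scale, and its call was lost without any 1 of 7 of the 10 mice (ΔΨ from 0.138 to 0.16). Under sudemycin, Tnfrsf14, a receptor of lymphocytes, fell from 0.052 ± 0.00336 to 0.0248 ± 0.00927 and lost its call without S34F sudemycin replicate 9 (ΔΨ = -0.0252) or S34F sudemycin replicate 10 (-0.0242); the upstream junction alone gave -0.00878. Pcyt2, of phosphatidylethanolamine synthesis, fell from 0.857 ± 0.0569 to 0.663 ± 0.115 over its 54 bp exon and lost its call without S34F sudemycin replicate 10 (ΔΨ = -0.147). A 31 bp untranslated exon of Mafg, a small Maf transcription factor, rose from 0.12 ± 0.0605 to 0.216 ± 0.0278, but on the upstream junction alone its ΔΨ was -0.0085. A second exon of Arhgap4, of 106 bp, rose from 0.956 ± 0.00782 to 0.99 ± 0.00997 with 2 downstream reads in all 20 mice, so its Ψ rests on the upstream junction.

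The drug comparisons in WT and in S34F mice also share no mouse. Both tested 566 events. All 6 events called in WT mice were called in S34F mice in the same direction, 42.9% of the 14 calls there, beside 50.4% and 37.4% for all cassette exons. Among them were Arhgap4, Ypel3 and Irf7, which were skipped more, and Fam76b and Cpsf6, which were included more. Of the 14 calls in S34F mice, 11 had the same sign in WT mice (78.6%, against 91.4% of all cassette exon calls). Gbf1, Tpra1 and Ddx39 had the opposite sign.

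**Figure D3:**
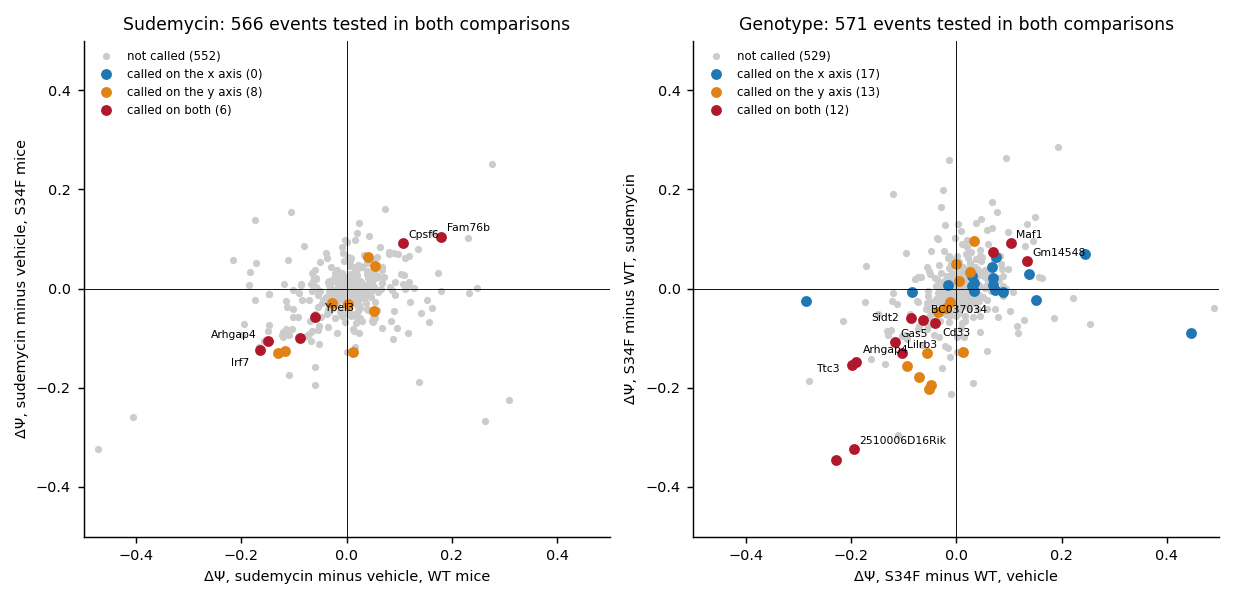
Each point is an event between short introns tested in both comparisons, with ΔΨ of one comparison on the x axis and of the other on the y axis; the left panel sets sudemycin in WT mice against sudemycin in S34F mice and the right panel S34F against WT under vehicle against the same under sudemycin. The 6 red points at left and the 12 at right, called on both axes, lie in the lower left or upper right quadrants.

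Ypel3, a small protein linked to growth arrest, included a 44 bp coding exon (chr7:133921568-133921611, plus strand) in nearly all transcripts under vehicle. WT mice had Ψ of 0.95, 0.923, 0.968, 0.952 and 0.955 with vehicle and 0.892, 0.879, 0.916, 0.905 and 0.86 with sudemycin. The S34F mice given vehicle had 0.945, 0.953, 0.945, 0.956 and 0.961. Those given sudemycin had 0.888, 0.892, 0.943, 0.884 and 0.869. Drug and vehicle did not overlap in either genotype, but in S34F mice the highest value with sudemycin, 0.943, was next to the lowest with vehicle, 0.945. The drug effect was ΔΨ = -0.0593 ± 0.0123 (SE; edgeR, FDR = 0.0196) in WT and ΔΨ = -0.0566 ± 0.013 (SE; edgeR, FDR = 0.00419) in S34F mice. The exon length is not a multiple of 3. Ypel3 RNA fell in S34F mice under sudemycin (48.2 ± 5.56 against 60.3 ± 4.2 CPM), with log2 fold change -0.33 ± 0.08 (SE; edgeR, FDR = 0.0365). In WT mice its change with the drug did not pass the test, with log2 fold change -0.16 ± 0.18 (SE; edgeR, FDR = 0.769). Its RNA was also lower in S34F than in WT mice under vehicle, with log2 fold change -0.68 ± 0.11 (SE; edgeR, FDR = 0.000797). A link between exon inclusion and RNA level was not tested.

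Irf7, a transcription factor of the type I interferon response, skipped a 93 bp coding exon (chr7:148450122-148450214, minus strand). Ψ was 0.894, 0.911, 0.939, 0.873 and 0.94 in the WT mice given vehicle. With sudemycin, WT mice had 0.625, 0.717, 0.679, 0.875 and 0.836. S34F mice had 0.845, 0.919, 0.867, 0.907 and 0.934 with vehicle and 0.817, 0.772, 0.772, 0.758 and 0.74 with sudemycin. Vehicle and sudemycin overlapped by a narrow margin in WT mice, 0.873 against 0.875, and did not overlap in S34F mice. The drug effect was ΔΨ = -0.165 ± 0.049 (SE; edgeR, FDR = 0.0309) in WT and ΔΨ = -0.123 ± 0.021 (SE; edgeR, FDR = 0.0891) in S34F mice. The first call was lost without WT sudemycin replicate 8 (ΔΨ = -0.158), and the second without any 1 of 8 of the 10 mice (ΔΨ from -0.134 to -0.113). Irf7 RNA fell under sudemycin, with log2 fold change -1.09 ± 0.15 (SE; edgeR, FDR = 0.00211) in S34F and log2 fold change -0.84 ± 0.19 (SE; edgeR, FDR = 0.0521) in WT mice.

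2 exons were included more under sudemycin. The 58 bp exon of Fam76b (chr9:13641103-13641160, plus strand), whose annotated inclusion transcript is marked for nonsense-mediated decay, had 0.129, 0.121, 0.16, 0.105 and 0.135 under vehicle and 0.212, 0.198, 0.363, 0.363 and 0.411 under sudemycin in WT mice. S34F mice had 0.208, 0.216, 0.181, 0.169 and 0.24 under vehicle. Under sudemycin they had 0.359, 0.292, 0.326, 0.304 and 0.257. No mouse given the drug overlapped with those given vehicle within its genotype, with ΔΨ = 0.18 ± 0.0445 (SE; edgeR, FDR = 0.00109) in WT and ΔΨ = 0.105 ± 0.0212 (SE; edgeR, FDR = 0.00656) in S34F mice. It was also called for genotype under vehicle (ΔΨ = 0.0728 ± 0.0156 (SE; edgeR, FDR = 0.063)), a call lost without any 1 of 7 of the 10 mice (ΔΨ from 0.0634 to 0.074), and under sudemycin the genotype means were 0.309 and 0.308. The 111 bp exon of Cpsf6, a subunit of the cleavage factor of mRNA 3′ ends (chr10:116798830-116798940, minus strand), had 0.213, 0.213, 0.215, 0.146 and 0.223 under vehicle and 0.294, 0.314, 0.273, 0.274 and 0.39 under sudemycin in WT mice. S34F mice had 0.253, 0.194, 0.304, 0.263 and 0.207 with vehicle. With the drug they had 0.34, 0.373, 0.347, 0.305 and 0.313. Vehicle and drug did not overlap in either genotype, with ΔΨ = 0.107 ± 0.0259 (SE; edgeR, FDR = 0.0671) in WT and ΔΨ = 0.0917 ± 0.0233 (SE; edgeR, FDR = 0.0344) in S34F mice. The call in WT was lost without WT vehicle replicate 2 (ΔΨ = 0.11), WT vehicle replicate 3 (0.111), WT vehicle replicate 4 (0.0931), WT sudemycin replicate 8 (0.106) or WT sudemycin replicate 12 (0.0869). The call in S34F was lost without S34F vehicle replicate 3 (ΔΨ = 0.0791), S34F vehicle replicate 11 (0.0824) or S34F sudemycin replicate 6 (0.0824).

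8 further exons were called for sudemycin in S34F mice and not in WT mice, and the interaction test passed for none of them. Bag6, a chaperone of newly made proteins, had a 108 bp coding exon at 0.862 ± 0.0267 with vehicle and 0.732 ± 0.0398 with sudemycin in S34F mice, and at 0.844 ± 0.0517 and 0.714 ± 0.101 in WT mice, where the difference did not pass the test with ΔΨ = -0.13 ± 0.0506 (SE; edgeR, FDR = 0.164). Hipk3, a homeodomain-interacting kinase, rose from 0.0337 ± 0.0105 to 0.08 ± 0.0261 in S34F mice, with 0.0376 ± 0.00634 and 0.0914 ± 0.0433 in WT mice. Dhrs3, a retinaldehyde reductase, rose from 0.936 ± 0.0174 to a Ψ of 1 in every S34F mouse given sudemycin, with ΔΨ of 0.147 on the upstream and 0.0408 on the downstream junction. Dhrs3 RNA fell in the same comparison (39.5 ± 3.71 against 57.2 ± 6.57 CPM), with log2 fold change -0.54 ± 0.09 (SE; edgeR, FDR = 0.00488). The calls of Bag6, Hipk3 and Dhrs3 were kept without any 1 mouse. Cdk11b, a kinase of transcription and splicing, had 0.521 ± 0.0473 and 0.394 ± 0.0515 and lost its call without S34F sudemycin replicate 6 (ΔΨ = -0.117) or S34F sudemycin replicate 12 (-0.116). Tpra1 was called although its upstream junction held 5 reads in the 20 mice, so its Ψ came from 1 side of the exon. Its exon was also called as skipped more in S34F than in WT mice under sudemycin, a call kept without any 1 mouse (ΔΨ from -0.159 to -0.101). Gbf1, a guanine nucleotide exchange factor of the Golgi, went from 0.997 ± 0.00744 to 0.951 ± 0.0292, and its call was lost without any 1 of 8 of the 10 mice (ΔΨ from -0.0444 to -0.0377). The Gbf1 exon was also called as included more in S34F than in WT mice under vehicle (ΔΨ = 0.0893), a call kept without any 1 mouse. Under sudemycin that difference had the opposite sign. Lrch4 and Ddx39 completed the 8.

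Whether sudemycin acted differently in the 2 genotypes was tested as an interaction. No event passed (edgeR; 0 of 641 events between short introns, background 0%), and DESeq2 and limma also called 0 of the events between short introns. At an unadjusted p under 0.05 there were 31 events (4.84%), against 4.85% of all cassette exons. For Arhgap4 the drug effect was smaller in S34F mice by 0.0423 on the Ψ scale (edgeR, unadjusted p = 0.0464, FDR = 0.965), and for Gbf1 it differed by -0.097 (edgeR, unadjusted p = 0.00338, FDR = 0.965).

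S34F mice given sudemycin were then compared with WT mice given vehicle, a comparison that shares mice with the others. Arhgap4 had the largest ΔΨ among exons with over 100 reads per mouse, ΔΨ = -0.297 ± 0.021 (SE; edgeR, FDR = 1.23e-17). Ttc3 fell from 0.702 ± 0.0687 to 0.447 ± 0.0455, Cdk11b from 0.614 ± 0.0469 to 0.394 ± 0.0515 and Usf2, a helix-loop-helix transcription factor, from 0.908 ± 0.0294 to 0.778 ± 0.0612. Ubtf, which activates RNA polymerase I, included its 111 bp coding exon at 0.323, 0.431, 0.359, 0.397 and 0.378 in WT mice with vehicle and at 0.528, 0.484, 0.534, 0.541 and 0.522 in S34F mice with sudemycin (ΔΨ = 0.145 ± 0.0207 (SE; edgeR, FDR = 3.63e-05)). The other 2 groups lay between, at 0.459 ± 0.0259 for WT with sudemycin and 0.452 ± 0.0276 for S34F with vehicle. These 5 calls were kept without any 1 mouse.

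The events were also grouped by the role of their genes, in lists chosen with earlier results of these data known. The lists take genes by the start of their symbols and are not complete: Bptf, Mafg, Sidt2, Gbf1 and Rif1 are in none of them. Over all cassette exons 5.38%, 4.6%, 1.62% and 2.17% of events were called for S34F under vehicle, S34F under sudemycin, sudemycin in WT and sudemycin in S34F mice. The blood cell surface and signalling list had 42 events, of which 5 of 39 were called for S34F under vehicle (3 lower, 2 higher; median ΔΨ 0.00284), 5 of 38 under sudemycin (4 lower, 1 higher) and 2 in each drug comparison, both lower, Arhgap4 and Irf7. The RNA processing and splicing list had 19 events: 0 of 15 were called for S34F under vehicle, 2 of 19 under sudemycin (Prpf39 and Pabpc4, both lower), 1 of 18 for sudemycin in WT (Cpsf6, higher) and 2 of 17 in S34F mice (Cpsf6, higher, and the helicase Ddx39, lower). The chromatin and transcription list had 2 of 38 called under vehicle (Gtf3c2 and Ubtf, both higher) and 0 in the other comparisons of 1 factor. The translation and ribosome list had 1 of 21 (Eif5, higher) and 1 of 22 (Mrps23, lower) in the genotype comparisons and none for the drug. The vesicle traffic and lysosome list had 1 call, Ap2a1 under vehicle (lower), and the cell cycle, DNA repair and apoptosis list 1, Cdk11b for sudemycin in S34F mice (lower), in those 4 comparisons.

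The base at −3 of the exon's own 3′ splice site was then read for each event. It was C in 499 of the 690 events (72.3%), T in 157 (22.8%), A in 31 (4.49%) and G in 3, against 59.0% C, 31.7% T and 8.38% A for exons without a short intron. For S34F under vehicle, T preceded the exon in 4 of 12 events skipped more (33.3%), 1 of 17 included more (5.88%) and 130 of 570 not called (22.8%). A 3′ splice site was counted for each event that used it. Those of 2510006D16Rik and Maf1 therefore counted 2 times under both treatments, and that of Pcyt2 counted 2 times under sudemycin. Under sudemycin T preceded 11 of 18 skipped more (61.1%), 3 of 7 included more and 129 of 591 not called (21.8%). Over all cassette exons the shares were 71.8% of those skipped more, 5.07% of those included more and 29.1% of those not called under vehicle, and 71.6%, 6.18% and 29.0% under sudemycin. Among the sites printed above, Arhgap4, Gas5, Ttc3 and BC037034 carry T and were skipped more, Maf1, Gtf3c2 and Rnf214 carry C and were included more, and Cd33 and Sidt2 carry C yet were skipped more, as was 2510006D16Rik with A. Of the exons called in both genotype comparisons whose sites are not printed, Lilrb3 carries C and was skipped more, and the Gm14548 and Gm15448 exon carries T and was included more. For the drug, C preceded 9 of 10 exons skipped more and 4 of 4 included more in S34F mice, and 3 of 4 and 2 of 2 in WT mice. Among events between short introns that were not called, C preceded 71.3% in S34F and 72.7% in WT mice. Over all cassette exons C preceded 70.5% of those skipped more, 56.25% of those included more and 60.6% of those not called in S34F mice. In WT mice these shares were 69.7%, 58.5% and 61.1%.

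The genes that carry these exons were compared at the level of whole-gene counts, with 520 host genes matched. S34F and WT mice under vehicle differed in 231 of 513 tested host genes, 167 lower and 64 higher in S34F; the background was 39.5% of all genes tested, 2930 lower and 2921 higher. Under sudemycin 232 of 514 differed (185 lower, 47 higher), against 36.8% of all genes (2884 lower, 2518 higher). The median log2 fold change of host genes was -0.12 under vehicle and -0.14 under sudemycin, beside 0.002 and -0.03 for all genes. Sudemycin changed 19 of 514 host genes in WT mice (10 lower, 9 higher; background 3.07%) and 61 of 514 in S34F mice (32 lower, 29 higher; background 10.8%). The number in WT mice was 6 without WT vehicle replicate 1 or 3, 9 without replicate 5, and 12 or 10 without WT sudemycin replicate 8 or 12. In S34F mice it was 40 without S34F vehicle replicate 1 and 38 without S34F sudemycin replicate 2. The count over all genes also varied without 1 mouse, from 191 to 730 in WT and from 913 to 1736 in S34F mice. Of 26 host genes of exons called for S34F under vehicle, 15 also differed in gene count, beside 45.0% of all tested host genes. Under sudemycin 9 of 20 did, beside 45.1%. For the drug 1 of 6 did in WT mice, beside 3.70%, and 6 of 14 in S34F mice, beside 11.9%.

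**Figure D4:**
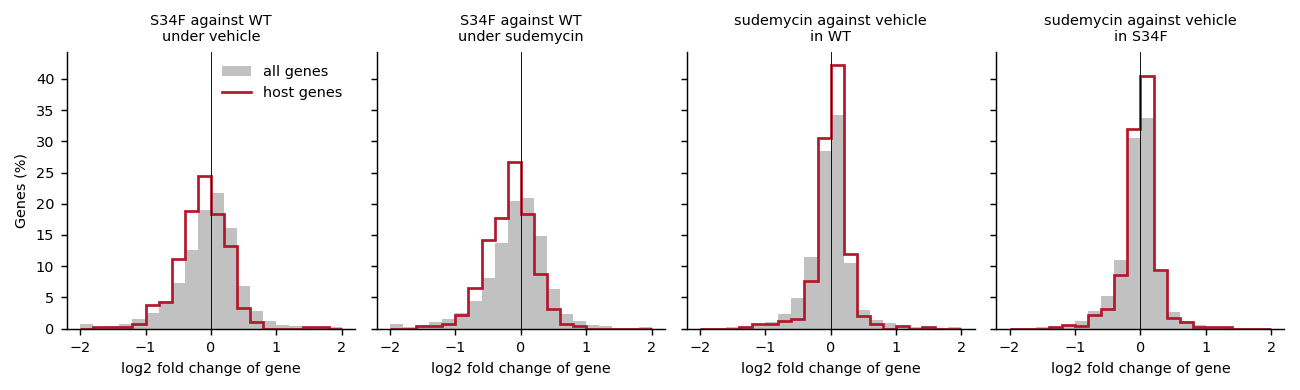
The percent of genes (y axis) is plotted against the log2 fold change in gene count (x axis, bins of 0.2, values beyond 2 placed in the end bins) for host genes of exons between short introns (line) and all genes tested (grey). In the genotype panels the host genes lie to the left of all genes, with medians of -0.12 and -0.14, and in the sudemycin panels both sit near 0.

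At the edge of the rule, the 3 events with the longest introns inside the limit had an intron of 499 bp: Fbxl8 had a mean Ψ of 0.0305 ± 0.0311 in WT mice with vehicle, and 2 overlapping exons of Zfp950 had 0.11 ± 0.0926 and 0.0954 ± 0.0796. Just outside, with introns of 501 and 503 bp, Sez6l2 had 0.883 ± 0.261, Brd8 0.719 ± 0.0861 and Fcho1 0.897 ± 0.0758. None of the 6 was called in any comparison. The events with the most reads among those with a mean Ψ from 0.1 to 0.9 included Lilrb3, an exon of Gm14548 and Pira2, Gp49a with Lilrb4, and Flot1, a lipid raft protein. Gp49a and Lilrb4, near-identical receptors whose reads can be split, had 0.831 ± 0.0336 in WT and 0.899 ± 0.0147 in S34F mice under vehicle (ΔΨ = 0.0682 ± 0.0164 (SE; edgeR, FDR = 0.00131)). Flot1 was called only when both perturbations were compared together (ΔΨ = -0.0444 ± 0.0154 (SE; edgeR, FDR = 0.0499)), and the call was lost without WT vehicle replicate 2 (ΔΨ = -0.0322) or S34F sudemycin replicate 12 (-0.0358). The Gm14548 and Pira2 exon was called in no comparison.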

How the data were processed

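Bone marrow RNA of 20 mice in 4 groups of 5 was depleted of ribosomal RNA, made into stranded libraries and sequenced as paired reads of 126 bp. The authors aligned the reads to mm9 with TopHat2 2.0.8 and deposited raw counts per splice junction and raw counts per gene, and the counting program is not given in the sources used here. Of 554616 deposited junctions, 181355 had both ends annotated and were used to build the events. Only reads that span a junction enter Ψ, so Ψ of exons with few reads is imprecise.

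Inclusion was tested with edgeR 4.0.16 (quasi-likelihood, robust, 1 intercept per mouse, negative binomial dispersion 0) on all 9239 cassette exon events, with Benjamini-Hochberg adjustment over all tested events, and both inclusion junctions were summed and divided by 2. Genes were tested with edgeR after its filter on low counts, and CPM were computed from the deposited gene counts. An FDR printed for ΔΨ or for a gene comes from these fits, and the SE of ΔΨ comes from the spread between mice. The log2 fold change of a gene was computed with a prior count of 2. Its SE was derived as its absolute value divided by the square root of the F statistic of the quasi-likelihood test. Alternatives used DESeq2 1.42.0, limma 3.58.1, other minimums, thresholds, intron limits and junctions, and left out each mouse in turn. The scripts were tested on simulated data. Named exons were, per comparison, at most the 12 called with the largest |ΔΨ|, the 5 most-read with Ψ between 0.1 and 0.9, those called in 2 or more comparisons, and the 3 on either side of the intron limit. Lrch4, Ddx39 and Ap2a1 are named because a small count or a gene list holds them. Some results within this rule and these lists are not reported here. The members, the dispersion, the gene lists and the tests were chosen with earlier results of these data known. Sequences and exon annotation were read from a reference of NCBI build 37, in which 99.3% of the events had AG at the 3′ splice site.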

Additional observations from a re-analysis of the deposited data

Results flagged for a closer look

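Within each group of 5 mice, the highest and lowest Ψ of the 49 named exon events were compared with their nearest neighbour by Dixon's ratio, with a critical value of 0.71. Of 192 groups with a range, 14 held a mouse that stood apart, and chance alone flags about 1 group in 20. Cpsf6 was at 0.146 in WT vehicle replicate 4, against 0.213 to 0.223 in the other 4, on 397 reads. Prpf39 was at 0.126 in S34F vehicle replicate 11, against 0.2 to 0.219 in the other 4, on 282 reads. Eif5 was at 0.946 in S34F vehicle replicate 5, against 0.968 to 0.976 in the other 4, on 2684 reads. Serhl was at 0.672 in WT sudemycin replicate 10, against 0.844 to 0.896 in the other 4, on 102 reads. Flot1 was at 0.953 in WT vehicle replicate 2, against 0.887 to 0.897 in the other 4, on 2652 reads. Tm7sf2 was at 0.481 in S34F vehicle replicate 5, against 0.727 to 0.759 in the other 4, on 40 reads. Gbf1 was at 0.983 in S34F vehicle replicate 5, against 1 in the other 4, on 477 reads. Zfp950 was at 0.134 in S34F vehicle replicate 3, against 0.0553 to 0.0737 in the other 4, on 55 reads. Mmadhc was at 0.0519 in WT vehicle replicate 3, against 0.0141 to 0.0239 in the other 4, on 243 reads. Chchd7 was at 0.0142 in WT vehicle replicate 5, against 0 in the other 4, on 215 reads. Chchd7 was at 0.0667 in WT sudemycin replicate 8, against 0 to 0.00926 in the other 4, on 160 reads. 2510006D16Rik was at 0.683 in WT sudemycin replicate 9, against 0.486 to 0.542 in the other 4, on 101 reads. Tpra1 was at 0.935 in WT vehicle replicate 2, against 1 in the other 4, on 179 reads. Hsd3b7 was at 0.815 in WT sudemycin replicate 8, against 1 in the other 4, on 147 reads. In Gbf1, Tpra1, Hsd3b7 and the vehicle group of Chchd7 the other 4 mice had the same value.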

How the results depend on the processing

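Counts of called events are given in the order S34F against WT under vehicle, the same under sudemycin, sudemycin in WT, sudemycin in S34F, and both perturbations, where the main counts were 29, 25, 6, 14 and 47. They were 2, 1, 0, 3 and 15 with the dispersion estimated by edgeR. With DESeq2 they were 35, 26, 11, 19 and 53. With limma on Ψ they were 17, 13, 2, 11 and 36. They were 37, 26, 13, 14 and 49 with no read minimum. At FDR<5% they were 18, 21, 5, 12 and 36. At |ΔΨ|>10% they were 13, 12, 4, 6 and 18. They were 20, 25, 7, 10 and 48 with the upstream junction alone. With the downstream junction alone they were 19, 14, 4, 9 and 37. With introns up to 300 bp they were 12, 11, 4, 8 and 23. They were 81, 71, 15, 21 and 116 with introns up to 1000 bp. With 1 model of all mice they were 29, 25, 19, 10 and 40. Leaving out 1 mouse gave 18 to 30, 19 to 25, 5 to 11, 11 to 17 and 38 to 49. Over all cassette exons it gave 315 to 421, 274 to 440, 105 to 161, 124 to 197 and 561 to 727. Host genes called, in the first 4 of these comparisons, were 257, 240, 30 and 92 with DESeq2, 184, 181, 10 and 36 at FDR<5%, and 192 to 274, 188 to 229, 6 to 21 and 38 to 68 without 1 mouse. Over all genes the counts without 1 mouse were 4817 to 6943, 4363 to 5796, 191 to 730 and 913 to 1736. The counts under the other settings were not set beside those over all cassette exons or genes. The sign reversed when 1 inclusion junction was used for Gm14548/Gm15448 (-0.0592, downstream, under vehicle and for both perturbations), Mafg (-0.0085, upstream, under sudemycin), 2510006D16Rik (0.0173, upstream, under sudemycin) and Tpra1 (0.114, upstream, for both), and the cause was not tested. Same-numbered mice did not deviate together (r from -0.031 to 0.061, own number best for 1 of 7). The check cannot show that the numbers carry no pairing, because a weak one could be missed. With the replicate number as a block 8 and 15 events were called in the genotype comparisons. Without it in the same mice, an alternative chosen after seeing the data, the counts were 10 and 19. Host genes were 182 and 155 with the block and 217 and 166 without. No paired analysis was possible for the drug comparisons because their groups share fewer than 2 numbers. The named events held 98 calls. Of these, 82 were lost with the estimated dispersion, 43 with limma and 15 with DESeq2, alternatives for single exons chosen after seeing the data. Leaving out 1 mouse kept 847 of the 980 values and lost the call in 133. In 32 of the 98, ΔΨ on 1 inclusion junction differed by over 1.5 times from ΔΨ on both. Ψ without the division by 2 moved ΔΨ by more than 1 SD in 51. Depth limits exons with few reads, and Ψ near 0 or 1 leaves little room for a change.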
